A study of Mus musculus with 4 samples.

Results

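The 33 meiotic recombination genes described here were taken by symbol from the gene list that all 4 libraries share, out of 31053 gene identifiers. All 33 symbols were found. They were read in germ cells, defined as barcodes with at least 2 unique molecular identifiers (UMIs, each standing for 1 captured RNA molecule) of Ddx4 and Dazl together, a pair of germ cell genes. The rule used no level of any of the 33 genes. It gave 12356 germ cells out of 24851 deposited barcodes: 2741 of 5465 at 9 days postpartum (dpp), 4218 of 6527 at 14 dpp, and 2824 of 7710 and 2573 of 5149 after 2 and 7 days of culture. Every gene passed the minimum of 50 UMIs over the 4 libraries, and Spata22 came nearest to it with 107 UMIs.

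The study measured single-cell RNA of testes from C57BL/6 mice that carry the Acr-Gfp transgene, in which the promoter of an acrosome gene drives green fluorescent protein. A pair of libraries came from testes removed at 7 dpp and cut up and kept for 2 or 7 days on agarose gel, below a chip of the silicone PDMS, with α-MEM as medium and AlbuMAX as its supplement. The other libraries came from testes of 9 dpp and 14 dpp mice without culture, so total age matched in the pairs 2-day culture with 9 dpp and 7-day culture with 14 dpp. Each group had 1 library, the labels do not say how many animals it held, and all 4 carried the transgene. No test between groups was possible, no p-value is given, and all 95% intervals cover counting error only. A difference between libraries cannot be told apart from a difference between culture and testis, or between ages. A preparation protocol in the labels mentions female gonads, but the sample titles name testes. Transcripts of the Sertoli cell genes Sox9 and Amh were found in each library.

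Meiotic recombination begins when the SPO11 complex cuts DNA across both strands at sites that PRDM9 marks on chromatin. The ends are trimmed, coated with single-strand binding proteins and loaded with recombinases such as DMC1, which search for the matching chromosome. MSH4, MSH5 and their helpers stabilise some of the joined intermediates, which mature as crossovers. In the testis this takes place in spermatocytes in the prophase of the first meiotic division, from leptotene to pachytene, and young testes reach these stages in a first wave during the weeks after birth.

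Germ cells of the 4 libraries held 13096390, 22655890, 35474535 and 43523022 UMIs in the order 2-day culture, 7-day culture, 9 dpp, 14 dpp, with medians of 3740, 6836, 11397 and 7788.5 per cell. Between 35 and 86 barcodes were shared by each pair of libraries. Levels are given as CPM (UMIs of a gene per 1000000 UMIs of the summed cells). All 12 early prophase markers, which the gate did not use, were detected in each library, and they summed to between 2758 and 7422 CPM in gated cells and between 81.9 and 142 CPM in the Sertoli reference cells described next. Some gated cells fell in clusters named for other cell types, and the summed level of the 8 Sertoli markers was 1051, 1252, 2302 and 3245 CPM in the same order. The largest such cluster held 509 cells, all from 14 dpp. Stromal markers summed to 255 CPM in the 2-day culture and to 59.3 to 68.4 CPM in the other three libraries.

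Nearly all of the 33 genes were higher in germ cells than in somatic reference cells. The reference was a set of 1179, 517, 1023 and 772 cells with no UMI of Ddx4 or Dazl and at least 3 UMIs of Sertoli markers, in the order above, which also held stromal and Leydig cell transcripts. Levels in germ cells were at least 2-fold above this reference for 32, 31, 30 and 30 of the 33 genes, against 30.8%, 30.7%, 29.9% and 30.1% of all genes with at least 50 UMIs. The median log2 ratio of germ to reference cells was 4.16, 4.55, 3.07 and 3.57, and over all genes between 0.23 and 0.27. Spata22 had no UMI in any reference cell, so its ratio was a lower bound set by a floor of 3 UMIs in the reference cells of a library.

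The genes short of 2-fold were Mcm9 in all 4 libraries, Rpa1 at 9 and 14 dpp and Mlh3 at 9 dpp. Spata22 was not counted as past 2-fold in the 7-day culture and at 14 dpp, since its lower bounds there were 0.70 and 0.79 on the log2 scale, which leave its ratio unknown above them. Mcm9, a helicase of DNA repair, was at 11.6 CPM in germ cells and 6.28 CPM in reference cells after 2 days of culture, and at 10.0 and 11.9 CPM after 7 days. Rpa1, the large subunit of the general single-strand DNA binding complex, had 57.6 CPM in germ cells and 32.7 CPM in reference cells at 9 dpp. At 9 dpp the mismatch repair gene Mlh3 stood at 10.4 and 6.54 CPM. When all cells with enough depth were thinned to 2000 UMIs, which left out 385, 82, 25 and 60 germ cells and 394, 23, 18 and 70 reference cells, germ cells held a median of 4, 4, 3 and 4 UMIs of the 33 genes and reference cells a median of 0. Cells with at least 1 such UMI made up 95.6%, 96.5%, 91.5% and 93.8% of germ cells and 29.2%, 32.2%, 33.3% and 30.8% of reference cells, at median depths before thinning of 4201 to 11481 and 6255 to 8674 UMIs. Without thinning the shares were 98.6%, 99.8%, 99.4% and 99.3% of germ cells and 50.3%, 70.6%, 76.5% and 63.0% of reference cells.

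**Figure D1:**
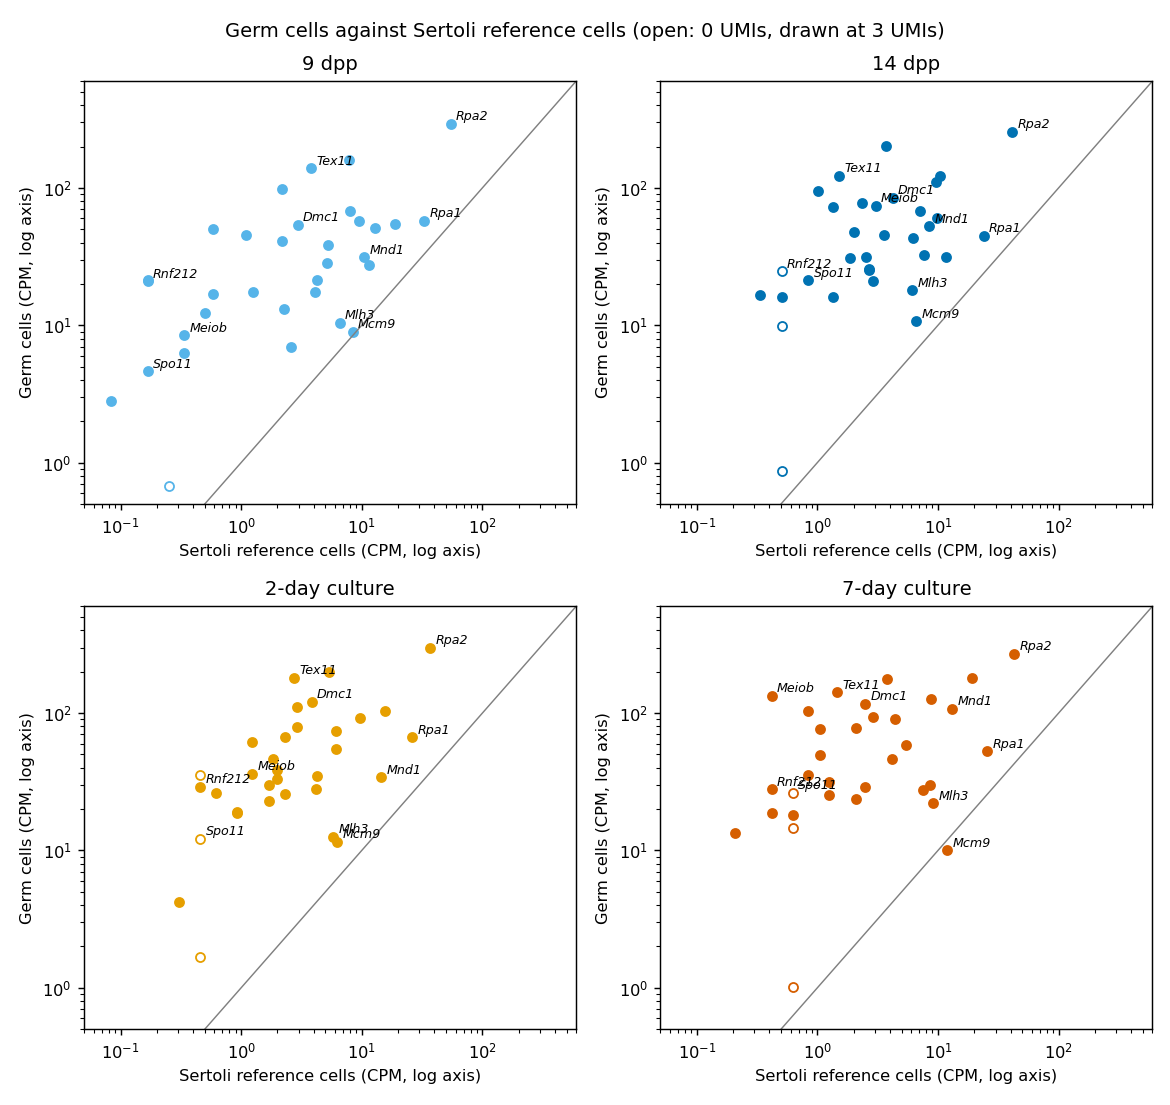
Each point is 1 of the 33 genes, placed by its level in Sertoli reference cells (horizontal, CPM, log axis) and in germ cells (vertical, CPM, log axis) of 1 library, with a line of equality. Nearly all points lie above the line, and Mcm9 in the 7-day culture (10.0 CPM in germ cells, 11.9 CPM in reference cells) lies below it.

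Promoter sequences were available from RefSeq (GRCm38.p6) for 29 of the 33 genes. In windows from 250 bases before to 50 bases after the start, 10 of these 29 promoters (34.5%) held the E2F motif TTCCCGC on either strand, against 4.66% of 27025 promoters. The E-box CACGTG was found in 4 (13.8%, against 7.24%), the motif CNCCTCAG reported for STRA8 and MEIOSIN in 4 (13.8%, against 7.97%) and the MYB motif AACNGTC in 4 (13.8%, against 8.09%). The CRE motif TGACGTCA was found in 1 promoter (3.45%, against 1.88%) and the NRF1 motif in 1 (3.45%, against 0.977%). In the 200 bases before the start alone, the shares were 20.7% against 3.31% for E2F and 3.45% against 5.14% for MYB, so MYB was below the share of all promoters there. The median GC content was 58.8% for the 29 promoters and 52% for all, and no match for base composition was made. A match is only a run of letters in a window. The sequences below are the 250 bases before the start for 4 genes whose levels follow different courses in the results. In Rad51ap2 the capitals mark the MYB motif and then the E2F motif on the reverse strand, and in Hfm1 they mark CNCCTCAG on the reverse strand and then the NRF1 motif. In Brca2 they mark the E2F motif on the reverse strand and then the CRE motif, and in Rec114 the E-box. The windows of Hfm1 and Rec114 lie inside the span that GENCODE gives for these genes, since RefSeq places the start further in.
Rad51ap2 (chr12:11455805-11456054, plus strand): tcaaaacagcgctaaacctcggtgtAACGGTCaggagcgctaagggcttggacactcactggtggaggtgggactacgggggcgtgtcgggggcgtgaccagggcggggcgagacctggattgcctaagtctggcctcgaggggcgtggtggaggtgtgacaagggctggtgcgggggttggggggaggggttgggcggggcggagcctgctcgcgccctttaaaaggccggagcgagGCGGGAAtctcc
Hfm1 (chr5:106925891-106926140, minus strand): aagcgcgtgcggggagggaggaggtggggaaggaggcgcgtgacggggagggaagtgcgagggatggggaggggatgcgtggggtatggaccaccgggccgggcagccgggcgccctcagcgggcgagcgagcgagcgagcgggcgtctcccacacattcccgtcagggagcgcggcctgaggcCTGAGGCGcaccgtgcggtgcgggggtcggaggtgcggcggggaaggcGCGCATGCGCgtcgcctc
Brca2 (chr5:150522371-150522620, plus strand): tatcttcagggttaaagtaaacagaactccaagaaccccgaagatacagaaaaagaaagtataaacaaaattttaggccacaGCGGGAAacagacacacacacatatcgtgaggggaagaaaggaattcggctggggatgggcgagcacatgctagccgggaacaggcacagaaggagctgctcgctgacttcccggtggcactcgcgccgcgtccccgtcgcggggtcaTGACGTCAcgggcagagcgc
Rec114 (chr9:58741560-58741809, minus strand): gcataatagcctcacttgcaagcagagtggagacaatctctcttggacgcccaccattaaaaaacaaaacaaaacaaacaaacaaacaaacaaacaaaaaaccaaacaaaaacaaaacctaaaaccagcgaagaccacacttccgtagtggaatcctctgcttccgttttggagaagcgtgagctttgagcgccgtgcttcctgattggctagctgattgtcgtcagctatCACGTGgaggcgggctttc

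Among the genes of break formation, Spo11 and Ankrd31 were higher in the older libraries, while Rec114 and Mei4 were lower there. Spo11, the enzyme that makes the break, was at 4.62 CPM at 9 dpp against 12.1 CPM in the 2-day culture, and at 21.2 CPM at 14 dpp against 26.4 CPM in the 7-day culture. The 9 dpp library was lowest and its interval (3.94 to 5.39 CPM) did not overlap that of any other. The log2 ratio was 1.39 (1.07 to 1.72) for the 2-day culture over 9 dpp, 0.31 (0.16 to 0.46) for the 7-day culture over 14 dpp and 2.20 (1.96 to 2.45) for 14 dpp over 9 dpp. Ankrd31, which brings the break machinery to chromosome axes, had 61.7, 104, 50.1 and 94.4 CPM in the order 2-day culture, 7-day culture, 9 dpp, 14 dpp, and was also higher in each older library than in the younger one.

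Rec114, Mei4 and Mei1, partners of SPO11 in break formation, were lower in the 7-day than in the 2-day culture. Rec114 had 111, 77.3, 98.4 and 73.0 CPM in that order, Mei4 had 26.3, 14.7, 21.3 and 16.0, and Mei1 had 35.4, 18.0, 16.9 and 16.0. The 7-day culture lay below the 2-day culture by log2 ratios of -0.52 (-0.62 to -0.42), -0.85 (-1.07 to -0.62) and -0.98 (-1.18 to -0.78). In vivo the ratios of 14 dpp over 9 dpp were -0.43, -0.41 and -0.07, and for Mei1 the interval (-0.23 to 0.09) held 0. Mei1 was at least 2-fold higher in the 2-day culture than at 9 dpp, at a log2 ratio of 1.07 (0.89 to 1.25), and at 0.41 without cells of somatic or unnamed clusters. Gm960, known as the SPO11 partner TOPOVIBL, ranged only from 12.3 CPM at 9 dpp to 18.8 CPM in the 2-day culture.

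Of the genes that choose and read the hotspots, Prdm9, the histone methyltransferase that marks them, had 17.4 CPM at 9 dpp, 38.6 CPM in its culture partner, 31.4 CPM at 14 dpp and 31.5 CPM in its culture partner. The 9 dpp library stood apart on the low side. The log2 ratio of the 2-day culture over 9 dpp was 1.14 (0.97 to 1.32), and that of the 7-day culture over 14 dpp was 0.00 (-0.13 to 0.14). The first value changed with the cells that were kept. Without cells of somatic or unnamed clusters it was -0.016. The unnamed clusters held 999 germ cells after 2 days of culture and only 20 at 9 dpp, and their part in the ratio was not tested further. Zcwpw1, which encodes a reader of the marks that PRDM9 writes, was at 200 (2-day culture), 177 (7-day culture), 160 (9 dpp) and 203 CPM (14 dpp). It was higher in the 2-day culture than at 9 dpp (log2 ratio 0.32, 0.25 to 0.39) and lower in the 7-day culture than at 14 dpp (-0.20, -0.25 to -0.14). Without cells of somatic or unnamed clusters the first ratio was 0.029.

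Of the 8 genes of strand exchange, 8 had a log2 ratio above 0 for the 2-day culture over 9 dpp, 7 for the 7-day culture over 14 dpp, 8 for 14 over 9 dpp and 7 for the 7-day over the 2-day culture, against 47.9%, 52.2%, 45.0% and 47.4% of all genes. The exceptions were Hsf2bp (-0.01) and Dmc1 (-0.05). Dmc1, the meiosis-specific recombinase, had 120, 116, 53.8 and 84.5 CPM in the order 2-day culture, 7-day culture, 9 dpp, 14 dpp. Both cultures lay above both testes, and the log2 ratios within the age pairs were 1.16 (1.06 to 1.26) and 0.46 (0.39 to 0.54). The first was 0.54 without cells of somatic or unnamed clusters. Rad51ap2 had 30.2, 94.1, 6.99 and 45.3 CPM, with no overlap of intervals among the 4 libraries. It was past 2-fold in all 4 comparisons, at 2.11 (1.88 to 2.34) for the 2-day culture over 9 dpp, 1.05 (0.97 to 1.14) for the 7-day culture over 14 dpp, 2.70 (2.51 to 2.89) for 14 over 9 dpp and 1.64 (1.49 to 1.80) for the 7-day over the 2-day culture. None of the other 32 genes was past 2-fold in all 4. The call of the 7-day culture over 14 dpp was lost in 2 of 14 alternatives, and the ratio was 0.69 with each cell weighted equally.

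Mnd1 and Psmc3ip encode the subunits of the HOP2-MND1 complex, which helps DMC1 pair the strands. Mnd1 had 31.3 CPM at 9 dpp and 34.1 CPM after 2 days of culture, with overlapping intervals, but 52.6 CPM at 14 dpp and 108 CPM after 7 days of culture. Its log2 ratio was 0.12 (-0.04 to 0.28) in the younger pair and 1.03 (0.95 to 1.12) in the older pair. Psmc3ip went from 103 (2-day culture) and 54.3 CPM (9 dpp) to 181 (7-day culture) and 121 CPM (14 dpp), and its ratios were 0.92 (0.82 to 1.02) and 0.58 (0.52 to 0.64).

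Brca2, which loads the recombinases, and Hsf2bp, which brings BRCA2 to meiotic breaks, were lowest at 9 dpp. Brca2 had 92.3, 127, 57.7 and 110 CPM and Hsf2bp 67.3, 76.7, 45.4 and 77.2 CPM in the order 2-day culture, 7-day culture, 9 dpp, 14 dpp. The 7-day culture and 14 dpp overlapped for Hsf2bp, at a log2 ratio of -0.01 (-0.09 to 0.07). Rad51ap1 was highest in the 7-day culture at 90.9 CPM and lowest at 9 dpp at 50.7 CPM. Brca1, a general repair gene, ranged only from 17.4 to 23.7 CPM.

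**Figure D2:**
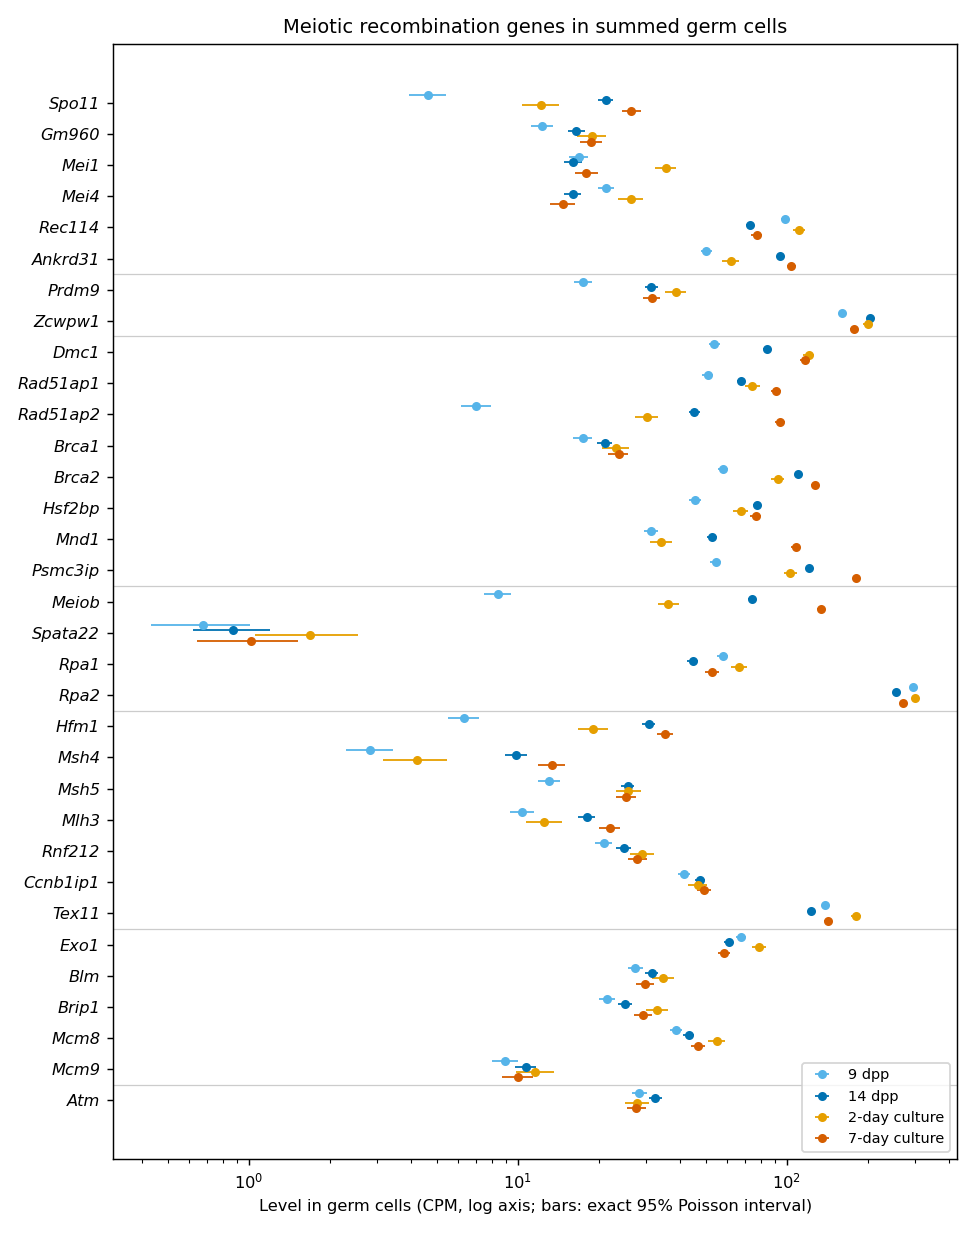
Points give the level of each gene (horizontal, CPM, log axis) in summed germ cells of the 4 libraries, with exact 95% Poisson intervals as bars and genes grouped by role. The 9 dpp library lies far to the left for Spo11, Rad51ap2, Meiob and Hfm1, while Rpa2 and Atm have all 4 libraries close together.

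Among the 4 genes of single-strand DNA binding, Meiob differed most between libraries. Meiob, a meiosis-specific relative of the general binding complex, had 8.43 CPM at 9 dpp against 36.3 CPM after 2 days of culture, and 74.1 CPM at 14 dpp against 134 CPM in the 7-day culture, and all 4 intervals were apart. Its log2 ratios were 2.11 (1.89 to 2.32) and 0.85 (0.78 to 0.92) for culture over testis, and 3.14 (2.96 to 3.31) for 14 over 9 dpp, the highest of the 33 genes in that comparison. Rpa1 and Rpa2, subunits of the complex that all dividing cells use, stayed within 2-fold in all 4 comparisons. Rpa2 had 300.3, 270, 293 and 255 CPM and Rpa1 66.5, 52.7, 57.6 and 44.6 CPM in the order 2-day culture, 7-day culture, 9 dpp, 14 dpp. Both were lower in the older libraries. The log2 ratios of 14 over 9 dpp and of the 7-day over the 2-day culture were -0.37 and -0.34 for Rpa1, and -0.20 and -0.15 for Rpa2. Spata22, the partner of MEIOB, was too low for a firm value, with 22, 23, 24 and 38 UMIs and levels of 1.68, 1.02, 0.677 and 0.873 CPM. Its ratio of the 2-day culture over 9 dpp was 1.31, with an interval from 0.41 to 2.21. A second gene model on the same strand overlaps Spata22 in the annotation, and the low count was not traced to it or to any other source.

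In the crossover group, Hfm1, a meiotic helicase, had 19.0, 35.3, 6.29 and 30.6 CPM in the order 2-day culture, 7-day culture, 9 dpp, 14 dpp. The 9 dpp library stood apart on the low side, at log2 ratios of 1.60 (1.33 to 1.86) against the 2-day culture and 2.28 (2.08 to 2.50) against 14 dpp. Msh4 and Msh5 encode the 2 parts of the complex that stabilises crossover intermediates. Msh4 had 4.20, 13.3, 2.82 and 9.86 CPM, with overlapping intervals in the 2 younger libraries. Msh5 had 25.7, 25.2, 13.1 and 25.5 CPM, so that only 9 dpp differed beyond counting error. Without cells of somatic or unnamed clusters its ratio of the 2-day culture over 9 dpp went from 0.98 to 0.38, and that of the 7-day over the 2-day culture from -0.03 to 0.66.

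The remaining crossover genes stayed within 2-fold in all 4 comparisons, like most of all genes. Mlh3, part of the nuclease that resolves crossovers, was at 12.5, 22.0, 10.4 and 18.0 CPM in the order 2-day culture, 7-day culture, 9 dpp, 14 dpp. Rnf212 and Ccnb1ip1, known for balancing which sites become crossovers, ranged from 20.9 to 28.9 CPM and from 41.4 to 49.3 CPM. Tex11, an X-linked gene whose product acts with MSH4 and MSH5, was highest in the 2-day culture at 180 CPM and lowest at 14 dpp at 123 CPM.

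The 5 genes of end trimming and helicases stayed within 2-fold in all 4 comparisons, as most genes did: 3.37% to 8.61% of all genes were higher and 5.26% to 8.23% lower. Exo1, the nuclease that trims break ends, ranged from 58.4 CPM in the 7-day culture to 78.6 CPM in the 2-day culture. The helicase genes Blm, Brip1, Mcm8 and Mcm9 were all lowest at 9 dpp and highest in the 2-day culture, with log2 ratios between these 2 libraries of 0.35 to 0.62. Atm, the kinase that signals breaks and limits their number, had 27.8, 27.6, 28.3 and 32.4 CPM in the order 2-day culture, 7-day culture, 9 dpp, 14 dpp. It had the lowest log2 ratio of the 33 genes in both culture comparisons, -0.03 (-0.20 to 0.15) and -0.23 (-0.37 to -0.10).

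Counted together, 8 of the 33 genes were at least 2-fold higher in the 2-day culture than at 9 dpp and 0 were lower, against a background of 4.84% higher and 8.23% lower among 15331 genes. They were Meiob, Rad51ap2, Hfm1, Spo11, Spata22, Dmc1, Prdm9 and Mei1. Spata22 rested on 22 and 24 UMIs in these libraries, and its ratio was 0.68 with 1 CPM added. At 1.5-fold 13 were higher, against 11.1% of all genes. The log2 ratio was above 0 for 32 of the 33, all but Atm, and its median was 0.51, against -0.02 over all genes. Without cells of somatic or unnamed clusters 5 genes were past 2-fold and the median was 0.24. Hfm1, Meiob, Rad51ap2 and Spo11 remained past 2-fold in all 14 alternatives run for this comparison. These alternatives kept germ cells of mixed stages. Within early prophase-like cells, described below, only Spo11 of these genes was past 2-fold.

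In the older pair, 2 of the 33 genes, Rad51ap2 and Mnd1, were at least 2-fold higher in the 7-day culture than at 14 dpp and 0 were lower, where the background was 3.37% higher and 8.08% lower. The log2 ratio was above 0 for 25 of 33, with a median of 0.17 against 0.02 over all genes. A gate of at least 1 UMI of Ddx4 and Dazl left 0 genes past 2-fold, with Mnd1 just short of it at 0.99, against 1.03 with the main gate. Weighting each cell equally left 1 gene and a median of 0.0041. Without cells of somatic or unnamed clusters 3 genes were past 2-fold, 17 of the 33 were above 0 and the median was 0.03.

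With age in vivo, 6 of the 33 genes (Meiob, Rad51ap2, Hfm1, Spo11, Msh4 and Psmc3ip) were at least 2-fold higher at 14 dpp than at 9 dpp and 0 were lower, against 8.49% and 5.26% of all genes. The median was 0.37, against -0.06 over all genes, and at 1.5-fold 14 genes were higher, against 14.9%. With each cell weighted equally Psmc3ip was at 0.71 and no longer past 2-fold. With time in culture, 5 genes (Meiob, Msh4, Mnd1, Rad51ap2 and Spo11) were at least 2-fold higher at 7 than at 2 days and 0 were lower, against 8.61% and 7.1%. At 1.5-fold 9 were higher and 3 lower, against 16.2% and 16.7%. Spo11, at 1.12, fell short of 2-fold (0.59) with each cell weighted equally. The median there was -0.03, the same as over all genes, and 19 of the 33 lay below 0. Without cells of somatic or unnamed clusters 6 genes were past 2-fold, 19 of the 33 lay above 0 and the median was 0.30. For this cell set, here and in the culture pairs above, no share or median over all genes is given. Whether its shifts are particular to the 33 genes was therefore not tested. These comparisons share libraries with those above, so their values are not independent of each other.

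**Figure D3:**
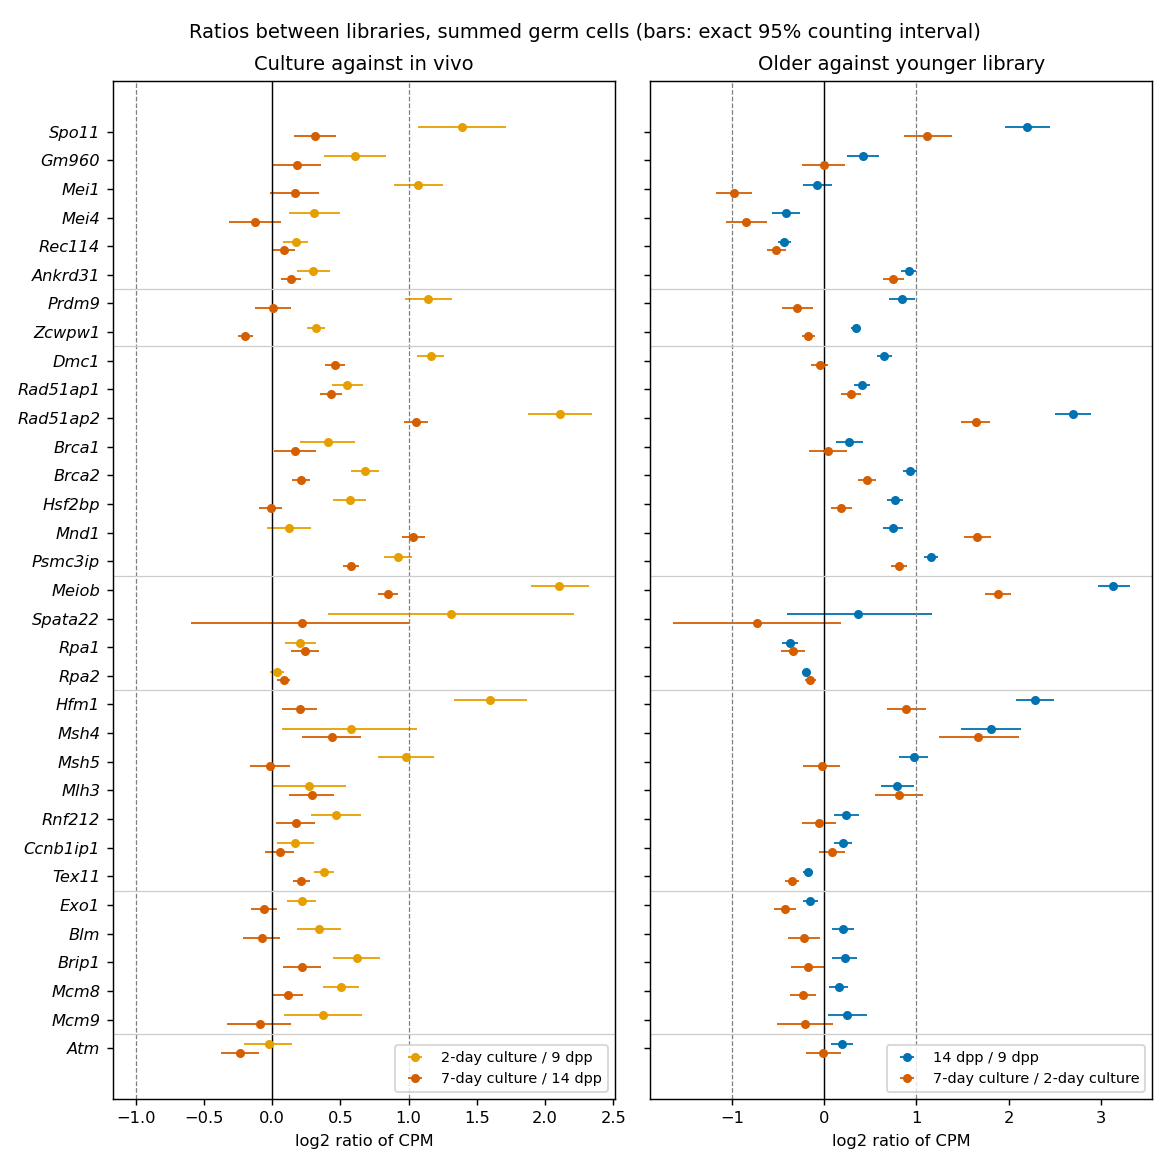
Points give the log2 ratio of CPM between libraries (horizontal) for each gene, culture over testis on the left and older over younger library on the right, with exact 95% counting intervals as bars and dashed lines at 2-fold. On the left the 2-day culture over 9 dpp lies above 0 for all genes but Atm, and on the right Meiob, Rad51ap2, Hfm1 and Spo11 are furthest above 0 for 14 dpp over 9 dpp.

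The libraries differed in the stages of their germ cells, and the part of these shares in the ratios over all germ cells was not tested. Germ cells of all libraries were clustered without the 33 genes, and clusters were named from marker lists. There were 93 early prophase-like cells at 9 dpp and 219 in the 2-day culture, 3.39% and 7.75% of germ cells, and 780 at 14 dpp and 703 in the 7-day culture, 18.5% and 27.3%. Undifferentiated spermatogonia-like cells numbered 76 in the 2-day culture and 654 at 9 dpp, 2.69% and 23.9% of germ cells. In the 7-day culture there were 170 and at 14 dpp 470, 6.61% and 11.1%. Preleptotene-like cells numbered 26, 84, 390 and 723 in the order 2-day culture, 7-day culture, 9 dpp, 14 dpp, and pachytene-like cells 0, 69, 0 and 100. Unnamed clusters held 999, 676, 20 and 61 germ cells. A cluster of 704 such cells, led by Pparg, Tslrn1 and M1ap, scored highest for preleptotene markers, and 523 of its cells came from the 2-day culture and 160 from the 7-day culture. A share of cells by stage therefore depends on how these clusters are treated: at a coarser clustering preleptotene-like cells numbered 373, 201, 283 and 508, and early prophase-like cells 396, 717, 99 and 782. A finer clustering put 445 cells (15.8%) of the 2-day library and 100 of the 9 dpp library in the early prophase-like class, and clustering on stage markers gave 655 (23.2%) and 207. The finer clustering also gave 797, 602, 398 and 732 preleptotene-like cells in the order 2-day culture, 7-day culture, 9 dpp, 14 dpp. Pachytene-like cells numbered 0, 208, 0 and 152 at the coarser clustering in that order, and 0, 22, 125 and 88 when libraries were clustered separately. Spermatogonial clusters were mostly of culture or mostly of testis, so a stage class did not hold the same clusters in every library. Haemoglobin genes were among the leading genes of both preleptotene-like clusters and the major histocompatibility genes H2-Ab1 and H2-D1 among those of early prophase-like clusters.

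At 14 dpp, where all 5 stages had at least 50 cells, 17 of the 33 genes had their highest level in early prophase-like cells, 8 in preleptotene-like, 4 in pachytene-like, 3 in differentiating and 1 in undifferentiated spermatogonia-like cells. Of 15307 genes with a UMI in these classes, 17.2%, 15%, 20.9%, 17.8% and 29.2% were highest in them, in the same order. The interval of the highest class was apart from that of the next for 12 of the 17, 5 of the 8, 3 of the 4, 1 of the 3 and 0 of the 1, against 36.2%, 31.8%, 62.5%, 29.7% and 47.4% of the genes highest in each class. In the 7-day culture the highest class was early prophase-like for 13 genes, preleptotene-like for 9 and pachytene-like for 6, against 16%, 19.4% and 20.1% of 15231 genes. Undifferentiated and differentiating spermatogonia-like cells were the highest class for 2 and 3 genes there, against 27.9% and 16.6%.

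At 14 dpp the genes of break formation were highest in separate classes. Rec114 had 92.1, 106, 158, 37.6 and 10.6 CPM from undifferentiated through differentiating, preleptotene-like and early prophase-like to pachytene-like cells, and Mei4 had 14.2, 22.8, 41.8, 16.6 and 0.683 CPM. Both were highest in preleptotene-like cells, before the class in which Spo11 was highest. Spo11 had 7.62, 3.64, 3.63, 98.8 and 79.9 CPM along the same classes, and the last 2 overlapped. In the 7-day culture the last 2 values of Spo11 were 80.8 and 98.8 CPM. Prdm9 was at 2.44, 16.2, 121, 118 and 0.341 CPM, so it was high in preleptotene-like and early prophase-like cells and nearly undetected in pachytene-like cells, with 1 UMI in 100 cells.

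Early prophase-like cells were the highest class for 5 of 8 genes of strand exchange and 2 of 4 of strand binding at 14 dpp, and for 4 of 8 and 1 of 4 in the 7-day culture, against 17.2% and 16% of all genes. At 14 dpp Dmc1 had 204 CPM in preleptotene-like, 367 in early prophase-like and 20.5 in pachytene-like cells. Rad51ap2 had 33.9, 301 and 11.9 CPM and Meiob 34.5, 381 and 144 CPM in these classes, while both were at most 7.32 CPM in spermatogonia-like cells. Zcwpw1 had 418, 653 and 71.4 CPM, from a base of 160 to 165 CPM in spermatogonia-like cells. Psmc3ip was highest in the last class, with 79.9, 176 and 638 CPM, and its partner Mnd1 had 35.4, 106 and 92.9 CPM.

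Of the 7 crossover genes at 14 dpp, 1 was highest in preleptotene-like, 3 in early prophase-like and 3 in pachytene-like cells, against 15%, 17.2% and 20.9% of all genes. Hfm1 and Msh5 were highest in early prophase-like cells of 14 dpp, at 163 and 133 CPM, and Mlh3 and Ccnb1ip1 in pachytene-like cells, at 46.1 and 123 CPM. Msh4 had 35.8 and 39.9 CPM in the last 2 classes, with overlapping intervals. Tex11 had 327 CPM in preleptotene-like cells, 168 in early prophase-like cells and 3.41 in pachytene-like cells, and it lies on the X chromosome, which as background is known to be silenced at pachytene. Outside this group, Rpa2, Rpa1 and Exo1 were at their highest in spermatogonia-like cells, and Rpa2 went from 354 CPM in undifferentiated to 152 CPM in pachytene-like cells.

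**Figure D4:**
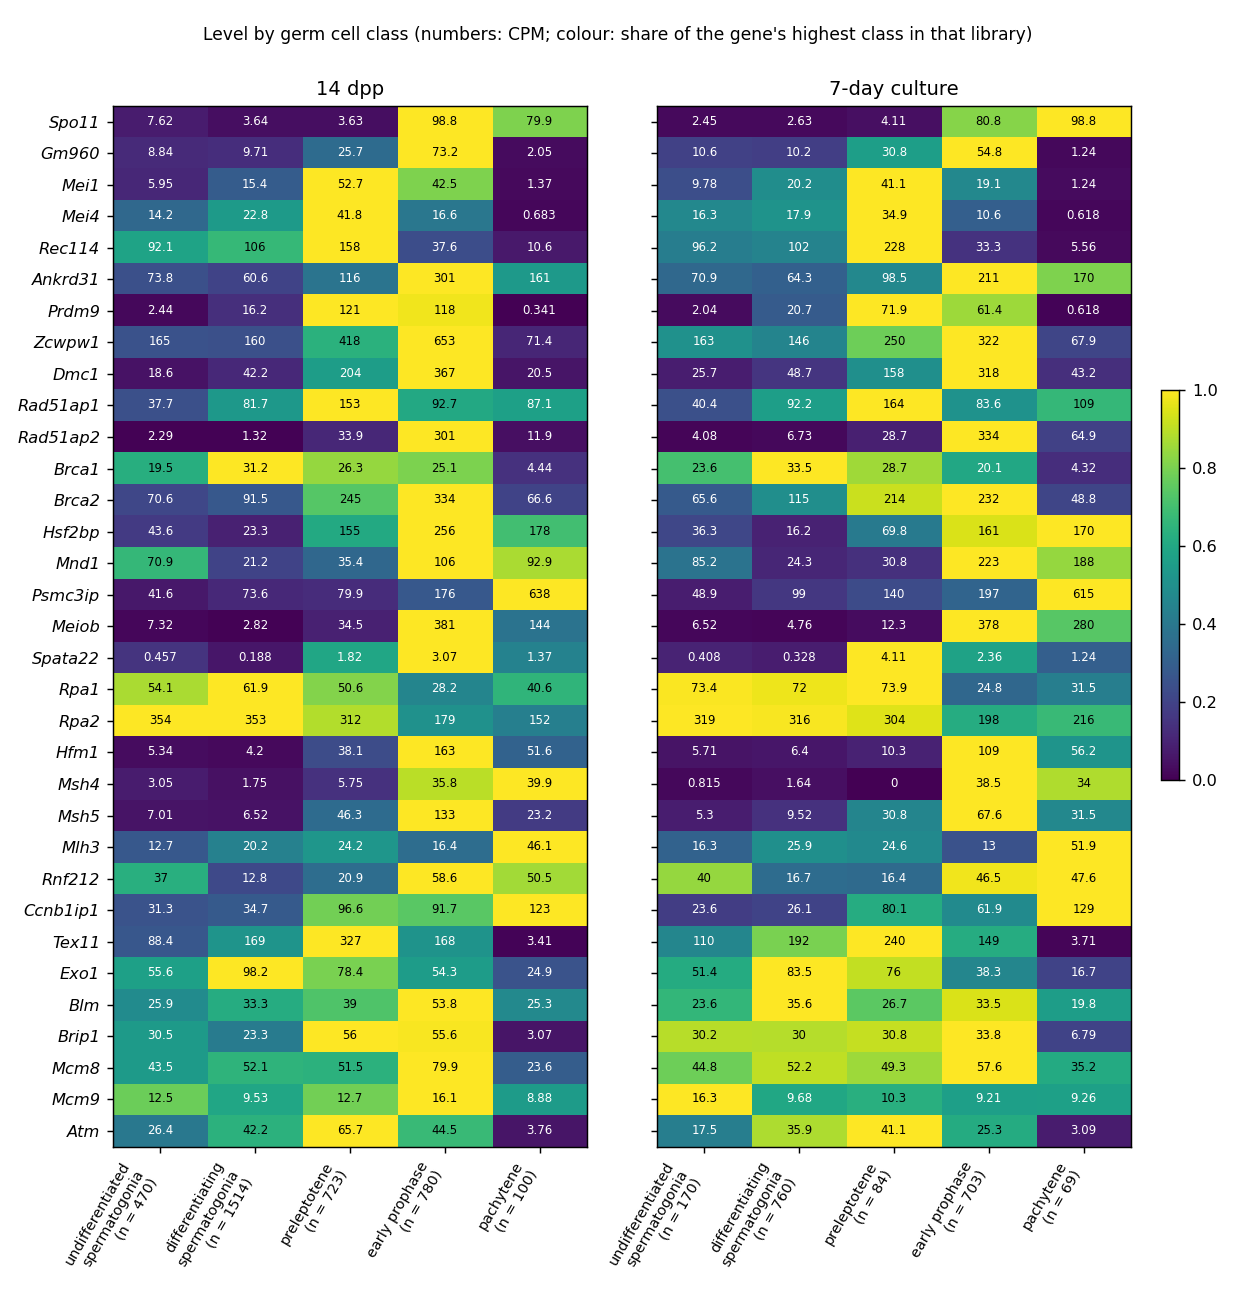
Cells of the heat map give the level (CPM, printed) of each gene in 5 germ cell classes of the 14 dpp and 7-day culture libraries, coloured by the share of the gene's highest class in that library. Rec114, Mei4 and Tex11 are brightest in preleptotene-like cells, Dmc1, Rad51ap2, Meiob and Hfm1 in early prophase-like cells and Psmc3ip and Mlh3 in pachytene-like cells.

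Counted per cell, the load of the 33 genes was highest in early prophase-like cells. After thinning to 2000 UMIs, these cells held a median of 9 UMIs of the 33 genes at 9 dpp, 10 at 14 dpp, and 10 and 7 after 2 and 7 days of culture. In the same order, 93, 767, 158 and 674 cells had the depth for this, out of 93, 780, 219 and 703 in the class. Differentiating spermatogonia-like cells held a median of 3 in each library, and cells with 5 or more such UMIs made up 31.4% of them at 14 dpp, against 89.7% of early prophase-like cells. In pachytene-like cells the median was 4 at 14 dpp and 6 in the 7-day culture.

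Within early prophase-like cells most of the genes were lower in the 7-day culture than at 14 dpp. Of 32 genes with at least 50 UMIs in these cells, all but Spata22, 1 was at least 2-fold higher in the 7-day culture than at 14 dpp and 2 were lower, against a background of 3.46% and 4.61% of 8473 genes. The log2 ratio was below 0 for 27 of the 32, with a median of -0.44, where all genes had a median of -0.01 and 50.5% lay below 0. Mnd1 was the gene that was higher, at 223 and 106 CPM (1.07, 0.90 to 1.24). Mei1 (19.1 and 42.5 CPM, -1.15, -1.55 to -0.76) and Zcwpw1 (322 and 653 CPM, -1.02, -1.12 to -0.92) were lower. Rad51ap2 was at 334 and 301 CPM, a ratio of 0.15 (0.04 to 0.26), and Meiob at 378 and 381 CPM, a ratio of -0.01 (-0.11 to 0.09). Over all germ cells both genes were higher in the 7-day culture. Sertoli markers summed to 48.7 and 424 CPM in early prophase-like cells of these libraries, and their part was not tested.

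In the younger pair, 5 of the 32 genes were at least 2-fold higher in early prophase-like cells of the 2-day culture than of 9 dpp and 0 were lower, against 7.21% and 10.6% of all genes, with a median of -0.10 against -0.09. They were Spo11 (1.24, 0.70 to 1.80), Mcm9 (1.23, -0.21 to 2.89), Blm (1.07, 0.30 to 1.89), Mcm8 (1.07, 0.31 to 1.86) and Psmc3ip (1.03, 0.57 to 1.50). In these cells Spo11 had 72.7 CPM at 9 dpp and 172 CPM after 2 days of culture, from 41 and 103 UMIs. Meiob (308 and 368 CPM), Rad51ap2 (213 and 313 CPM) and Hfm1 (144 and 107 CPM) stayed within 2-fold there, in the order 9 dpp, 2-day culture. Of 14 over 9 dpp, Mnd1 (1.26) and Mcm8 (1.03) were higher and Mei4 (-1.47) was lower, where the background was 12.5% higher and 3.67% lower. Of the 7-day over the 2-day culture, 1 gene, Mnd1 at 2.67 (2.05 to 3.37), was higher and 9 were lower, where the background was 17.4% higher and 5.23% lower, and the median was -0.54 against 0.14 over all genes.

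The early prophase-like class held 3 clusters in unequal shares. A cluster led by Rbpms2, Pbx3 and Inca1 held 35, 117, 75 and 350 cells in the order 2-day culture, 7-day culture, 9 dpp, 14 dpp. A cluster with Ccnb3, Terb1 and Primpol among its leading genes held 156, 146, 14 and 183, and one with Zfy2 and Rexo5 held 28, 440, 4 and 247. The last took 440 of 703 such cells after 7 days of culture, against 247 of 780 at 14 dpp. The 3 clusters differed in the genes they carried. Over all libraries, Mei1 was at 91.0, 35.2 and 2.15 CPM in the order given here, Zcwpw1 at 967, 828 and 128 CPM, Spo11 at 54.0, 202 and 76.6 CPM and Mnd1 at 27.9, 29.6 and 274 CPM.

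The 7-day culture and 14 dpp were also compared cluster by cluster. The median log2 ratio of 7-day culture over 14 dpp was 0.16 over 29 genes in the Rbpms2 cluster, -0.34 over 24 genes in the Ccnb3 cluster and -0.25 over 27 genes in the Zfy2 cluster, with 20, 9 and 5 genes above 0. Over all genes the medians were 0.04, -0.07 and 0.01. In the Rbpms2 cluster 1 of the 29 genes was past 2-fold, Mnd1 at 1.09 (0.27 to 1.90), where 1.01% of all genes were higher and 2.45% lower. In the Ccnb3 cluster 2 of the 24 were lower, Ccnb1ip1 at -1.36 (-2.09 to -0.68) and Hsf2bp at -1.07 (-1.42 to -0.72), where 1.09% of all genes were higher and 2.97% lower. In the Zfy2 cluster 0 of 27 were past 2-fold, where 1.79% were higher and 2.09% lower, but 22 of the 27 lay below 0, against 49.2% of all genes. There Mnd1 had 229 CPM at 14 dpp and 303 CPM after 7 days of culture.

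The pachytene-like cluster, with 100 cells of 14 dpp and 69 of its culture partner, gave a median of 0.10 over 22 genes, of which 3 were at least 2-fold higher in culture and 0 lower, where 2.16% of all genes were higher and 3.36% lower. In it Rad51ap2 had 64.9 CPM (105 UMIs) in culture and 11.9 CPM (35 UMIs) at 14 dpp, a log2 ratio of 7-day culture over 14 dpp of 2.44 (1.88 to 3.04). Dmc1 followed with 43.2 and 20.5 CPM (1.08, 0.56 to 1.60) and Mnd1 with 188 and 92.9 CPM (1.02, 0.77 to 1.26). An unnamed cluster led by Gml and with Hspa2 among its leading genes, 52 cells of 14 dpp and 141 of its culture partner, had Mnd1 at 363, Meiob at 484 and Psmc3ip at 469 CPM over both libraries.

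**Figure D5:**
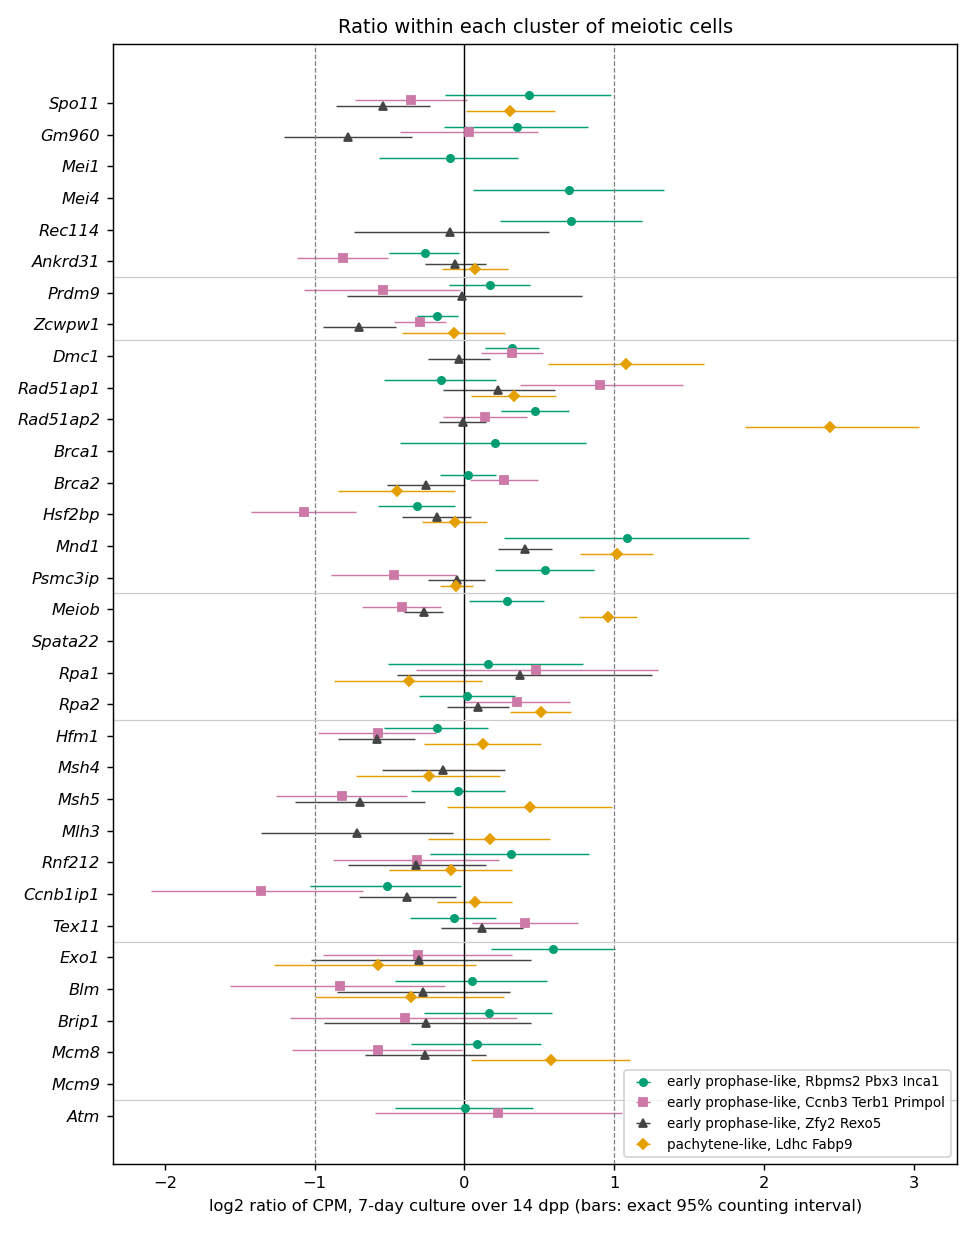
Points give the log2 ratio of CPM of the 7-day culture over 14 dpp (horizontal) for each gene within 3 early prophase-like clusters and the pachytene-like cluster, with exact 95% counting intervals as bars and dashed lines at 2-fold. Most points lie within 2-fold, Rad51ap2 in the pachytene-like cluster stands out at 2.44, and Hsf2bp and Ccnb1ip1 lie below -1 in the Ccnb3 cluster.

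Of 50 other recombination and repair genes, 49 were found by symbol and all 49 had at least 50 UMIs. In the 2-day culture against 9 dpp 3 were at least 2-fold higher and 0 lower, and in the 7-day culture against 14 dpp 1 was higher and 0 lower. These are 6.12% and 2.04% of the 49, near the 4.84% and 3.37% of all genes that were higher. The medians were 0.20 and 0.15, against -0.02 and 0.02 over all genes. Cntd1, a cyclin-like gene needed for crossover maturation, was the one past 2-fold in both pairs, with 12.6, 122, 4.65 and 47.8 CPM in the order 2-day culture, 7-day culture, 9 dpp, 14 dpp and ratios of 1.44 (1.12 to 1.76) and 1.35 (1.26 to 1.43). The other two of the younger pair, named after their values were seen, were 1700102P08Rik (1.52, 1.02 to 2.02) and 4930432K21Rik (1.22, 1.04 to 1.41). The 3 of highest CPM stayed within 2-fold in both pairs: Swi5 (0.15 and 0.48) and Sfr1 (0.07 and -0.23), whose products form a complex that assists strand exchange, and Ewsr1 (0.09 and 0.20), an RNA-binding protein gene.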

How the data were processed

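The deposited files hold raw UMI counts per gene and barcode, made by the authors with Cell Ranger 3.0.2 on mm10, per the submitters' processing notes; cell calling settings are not given in the sources used here. Barcodes needed 500 detected genes and no more than 20% of UMIs from mitochondrial genes, and Scrublet calls (scanpy 1.11.5, expected rate 6%) were removed per library: 253, 93, 143 and 143 barcodes in the order 2-day culture, 7-day culture, 9 dpp, 14 dpp. The counts of germ cells were summed per library and divided by their total (CPM). Ratios had no added constant, and 0 UMIs were set to a floor of 3. Poisson, conditional binomial and Clopper-Pearson intervals at 95% are exact. Germ cells were clustered with Leiden (leidenalg 0.10.2, resolution 1, 2000 variable genes without the genes described, 30 components, 20 neighbours). A cluster was named when at least 3 markers were detected and its leading genes did not favour another class. The ratio code was tested on simulated data. TMM factors came from edgeR 4.0.16. Gene positions are from GENCODE on GRCm38. Named genes were all 33 members, other recombination genes past 2-fold in both culture pairs and the 3 of highest CPM. The members, lists and comparisons were chosen with earlier results of these data known. The low Spata22 count and overlapping gene models (listed for 12 members on the same strand) were not resolved.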

Additional observations from a re-analysis of the deposited data

Results flagged for a closer look

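Zcwpw1, the gene of a histone mark reader, was flagged because the culture comparison ran in opposite directions at the 2 ages. Its log2 ratio was 0.32 for the 2-day culture over 9 dpp and -0.20 for the 7-day culture over 14 dpp, and neither interval held 0. The first ratio was 0.029 without cells of somatic or unnamed clusters, so most of its distance from 0 was lost without those cells. With 1 library per group the difference between the pairs was not tested.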

How the results depend on the processing

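No paired analysis was possible because each group has 1 library. For the 2-day culture over 9 dpp, leaving out cells of somatic or unnamed clusters gave 5 genes past 2-fold and a median of 0.24. It took Prdm9 from 1.14 to -0.016, so that the difference was lost, and left 1703 germ cells in the 2-day culture. In the same setting the median of the 7-day over the 2-day culture was 0.30, and no median over all genes is given for it. For the 7-day culture over 14 dpp, a gate of 1 UMI gave 0 genes past 2-fold, with Mnd1 at 0.99 against 1.03 in the report. Equal weight for each cell gave 1 gene and a median of 0.0041 there, and a median of 0.50 for 14 over 9 dpp. At 1.5-fold, 13 genes were higher in the 2-day culture than at 9 dpp (11.1% of all genes were), 14 higher at 14 than at 9 dpp (14.9%), and 9 higher (16.2%) and 3 lower (16.7%) in the 7-day than in the 2-day culture. When libraries were clustered separately, the early prophase-like median of the 7-day culture over 14 dpp was -0.72. In a window of 200 bases before the start, 6 promoters (20.7%) held the E2F motif, against 3.31% of all, and 1 (3.45%) the MYB motif, against 5.14%, so MYB turned from above to below the share of all promoters. The causes were not tested. Leaving out only somatic clusters, a setting chosen after seeing the data, gave 8, 2, 6 and 5 genes higher in the 4 comparisons, as in the report. The median of the 7-day culture over 14 dpp went from 0.17 to 0.08 in that setting, and the genes above 0 from 25 to 23. Low counts limit Spata22 and levels in classes of under 100 cells.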
